A study of Saccharomyces cerevisiae with 4 samples.

Results

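The enzymes that modify, splice, export and charge transfer RNA (tRNA) were examined in budding yeast cells without TRF4. The 45 genes were taken by their systematic names from the 7445 features of the count table, and all 45 passed the filter on low counts. They comprised 22 genes of charging, which were the cytosolic aminoacyl-tRNA synthetases and their cofactor ARC1, 19 genes of tRNA modification, and 4 genes of splicing, end binding and nuclear export. The choice went by gene name and known function, with no threshold on a measured value, but it was made with earlier results of these data known. The cells were Saccharomyces cerevisiae of the W303 background, either trf4::HphMX4 (trf4Δ, the TRF4 gene disrupted with a hygromycin resistance cassette) or wild type, with 2 libraries of each genotype. All were grown in YPDA, a rich medium, at 25 °C and collected in exponential phase, and the sequenced RNA had been depleted of ribosomal RNA. The labels do not say whether the libraries of a genotype came from separate cultures, so the p-values measure the spread between these libraries, which may be technical.

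A new tRNA is trimmed at both ends, spliced where it holds an intron, modified at many bases, exported from the nucleus and finally joined to its amino acid by a synthetase. Synthetases fall into class I and class II, which have unrelated catalytic folds. Trf4 adds short poly(A) tails to faulty nuclear RNA as the catalytic subunit of TRAMP, and the tailed RNA is passed to the exosome for decay. In yeast, initiator tRNA that lacks the methyl group placed by the TRM6-TRM61 complex is a known substrate of this decay. Trf4 and that complex can thus act on the same tRNA.

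The deletion was seen in the counts. TRF4 (listed as PAP2, YOL115W, chromosome XV) was read 21 and 40 times in trf4Δ cells, while wild-type cells gave 8102 and 8468 counts. The log2 fold change was -8.31 (SE 0.21, edgeR adjusted p = 1.01e-06). Library totals lay between 53516242 and 57964567 counts, and the 45 genes had between 1556 and 98577 counts in any library, far above the floor of 3 counts. Levels are given as CPM, counts scaled to a common library size with TMM, a method that assumes most features do not change. Genes of mating type a summed to 997 and 898 CPM in trf4Δ and to 1377 and 1339 CPM in the wild type. Genes of mating type α, 3 in all and none of them at 0, summed to 9.32 and 13.7 CPM in trf4Δ and to 5.83 and 6.14 CPM in the wild type, and their part in the results below was not tested.

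Nearly all of the 45 genes had lower levels without TRF4. Of the 45, 40 fell and 1 rose with an adjusted p below 0.05 in the quasi-likelihood test of edgeR, in which p-values were adjusted over the 6372 features kept, and 4 did not pass. Among all features tested, 28.9% were lower and 31.3% were higher, 60.1% in all. All 22 charging genes fell, 15 of the 19 modification genes fell and 1 rose, and 3 of the 4 processing genes fell. The median log2 fold change was -0.54 for the charging genes, -0.64 for the modification genes and -0.54 for the processing genes, against 0.01 for all features tested. For 42 of the 45 genes both trf4Δ libraries lay below both wild-type libraries, a pattern found for 40.2% of all features. Both genotypes were apart in either direction for all but TRM5 and SEN2, and for 81.9% of all features.

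**Figure D1:**
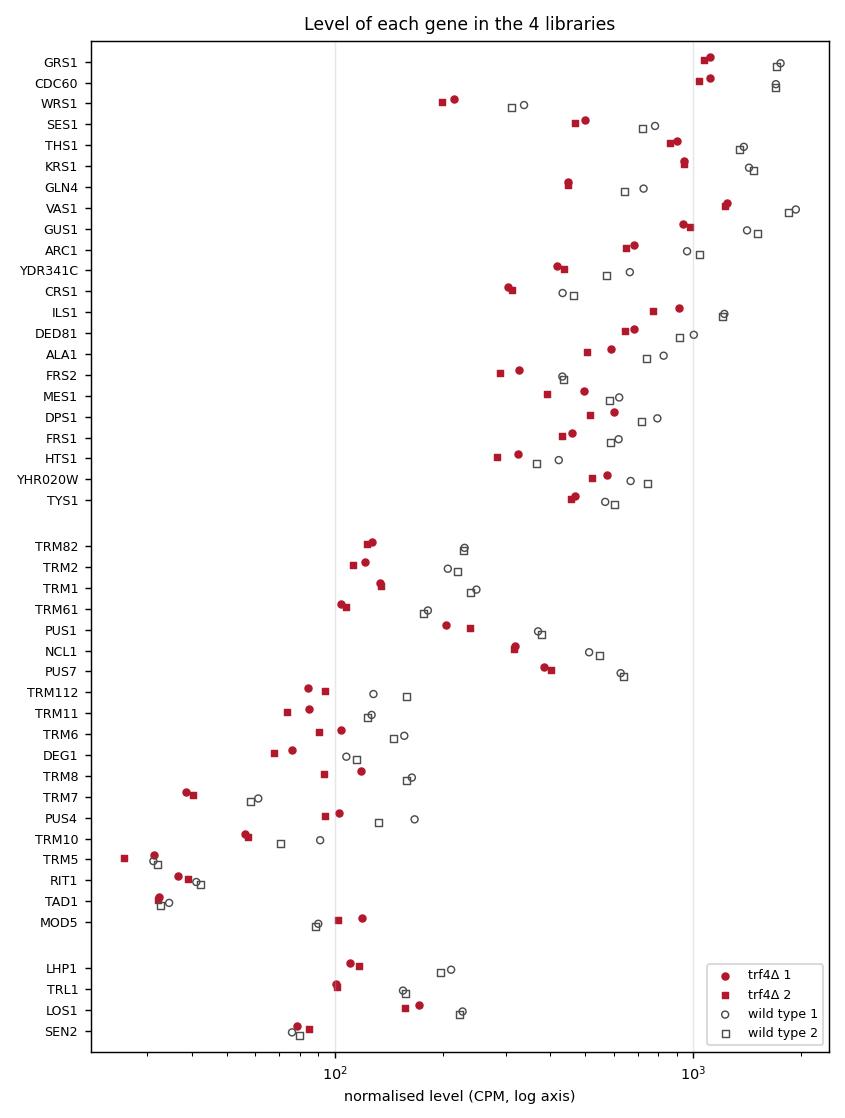
Normalised level in CPM on a log axis (horizontal) of each of the 45 genes (vertical), with 1 point per library, filled red for trf4Δ and open grey for the wild type, and circles and squares for the first and second library of each genotype. The red points lie to the left of the grey ones in all 22 charging genes at the top, while MOD5 has them to the right.

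The change in these libraries followed the level of a feature, which bears differently on the classes. Features were ranked by mean level and divided into 10 equal groups. Of the charging genes, 21 of 22 stood in the highest group, where 70.2% of 638 features were called lower and the median log2 fold change was -0.53. The median of the charging genes, -0.54, was close to that of their level group, and 14 of the 22 lay below it. The modification genes were spread over the fourth to the highest group, and 18 of 19 lay below the median of their own level group. This was not particular to them, as 55 of 70 other genes of the tRNA pathway, described below, did so too. Among these were 22 of 23 further genes of cytosolic modification and 10 of 13 that modify the wobble uridine. Of all 6372 features tested, 3182 lay below the median of their group. The median distance was -0.45 for modification genes and -0.01 for charging genes on the log2 scale. These distances are a description and carry no test.

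**Figure D2:**
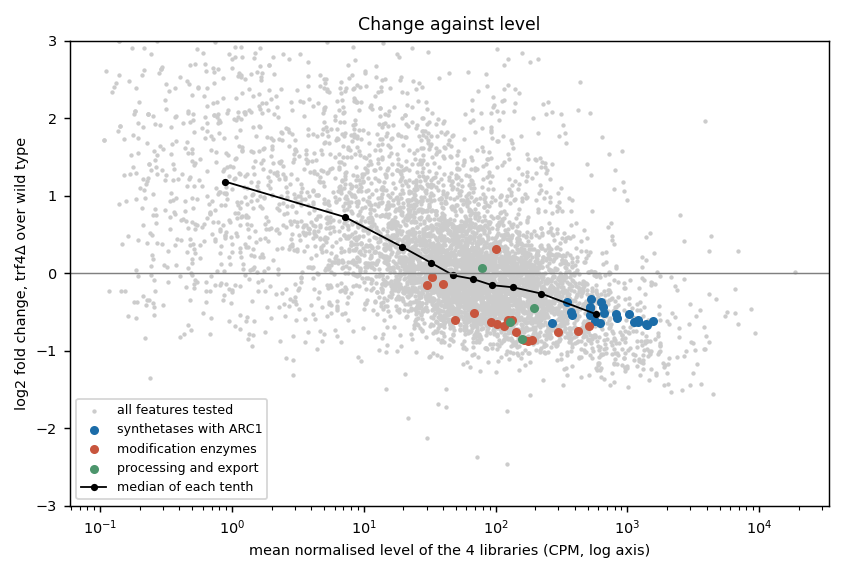
Log2 fold change of trf4Δ over wild type (vertical) against the mean normalised level of the 4 libraries in CPM on a log axis (horizontal). Grey points are all features tested (89 features with changes beyond 3 in size lie outside the axis), coloured points are the 3 classes of tRNA genes and the black line joins the medians of 10 groups by level. The blue charging genes lie around the end of the line, at -0.53, and 18 of the 19 red modification genes lie under it.

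The classes did not separate clearly in the size of their fall. The median log2 fold change of the charging genes minus that of the modification genes was 0.10, and leaving out the first or the second trf4Δ library moved it to 0.05 or 0.01. Summed over their members, charging genes reached 14260 and 13460 CPM in trf4Δ, against 20720 and 20260 CPM in the wild type. The modification genes together had 2279 and 2243 CPM in trf4Δ, against 3576 and 3587 CPM in the wild type. Neither sum overlapped between the genotypes, and the sum of all features tested did not overlap either. All features summed to 888500 and 900400 CPM in trf4Δ, against 1107000 and 1129000 CPM in the wild type. The sums of all features are set by the TMM factors and are not a measured fall. The log2 ratio of the summed level was -0.564 for charging genes and -0.664 for modification genes. For all features it was -0.322, which restates the TMM factors. Scaling by library size alone, in place of TMM, left 24 of the 45 genes lower, namely 10 charging, 12 modification and 2 processing genes, beside 11.6% of all features lower and 49.6% higher. Under that scaling the median of all features was 0.34, and relative to it the medians of charging and modification genes were -0.55 and -0.65. Another scaling moves every log2 fold change by nearly the same amount, so these distances are set by construction and say nothing of which scaling is right.

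The 45 genes lie on 13 chromosomes, each in a single coding exon, and none overlaps another gene in RefSeq (assembly R64). Overlap with features of the count table outside RefSeq was not examined. The 250 bases before each start codon were searched on both strands for short motifs, whose shares are a description and were not tested. The core of the Gcn4 site (TGACTC), bound by the activator of amino acid biosynthesis genes, was found before 9 of the 22 charging genes (40.9%) and before 0 of the 19 modification genes, against 6.24% of 6007 promoters. The core of the PAC box (CGATGAG), a motif of ribosome biogenesis genes, was found before 2 charging genes (9.09%) and 8 modification genes (42.1%), against 6.31% of all promoters. A core of the RRPE motif (GAAAAAT), also known from ribosome biogenesis genes, was found before 72.7% of charging and 47.4% of modification genes, against 23.5% of all promoters. The stress response element (AGGGG), the site of Msn2 and Msn4, was found before FRS2 and PUS4 only, 4.44% of the 45 genes against 18.8% of all promoters. The Rap1 core (ACACCCA) was found before 9.09% of charging genes, against 1.76% of all promoters. A match is a description of the letters and not a binding site.

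**Figure D3:**
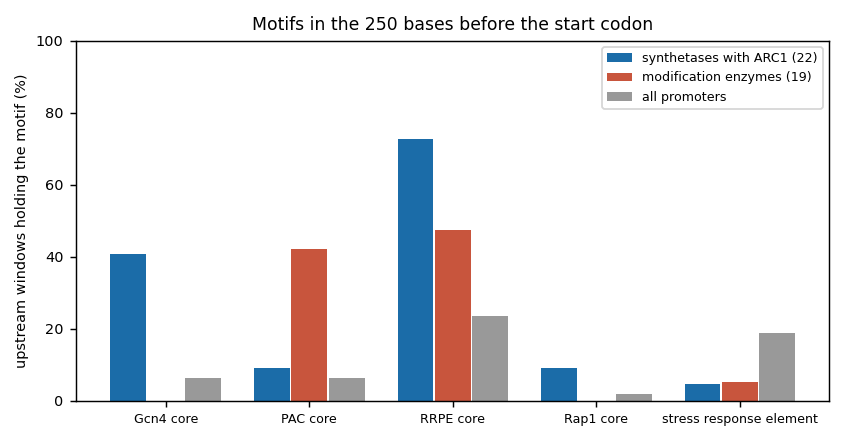
Share of upstream windows of 250 bases that hold each motif (vertical, in percent) for charging genes (blue), modification genes (red) and all promoters (grey). The Gcn4 core stands at 40.9% of charging genes and at 0 of the modification genes, and the PAC core stands at 42.1% of modification genes.

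A selection of 5 windows is shown, read from the R64 assembly 5′ to 3′ on the strand of the gene and ending just before the start codon, with motif matches in capitals. They are 2 neighbouring charging genes that share 1 intergenic region, 1 further charging gene with a Gcn4 core and 2 modification genes with a PAC core.
DED81 (chrVIII:143559-143808, reverse strand): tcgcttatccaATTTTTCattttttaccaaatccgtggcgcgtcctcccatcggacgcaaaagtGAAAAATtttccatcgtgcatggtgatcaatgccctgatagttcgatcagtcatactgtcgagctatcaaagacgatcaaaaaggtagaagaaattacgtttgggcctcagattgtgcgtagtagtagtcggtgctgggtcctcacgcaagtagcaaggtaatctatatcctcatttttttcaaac
YHR020W (chrVIII:143746-143995, forward strand): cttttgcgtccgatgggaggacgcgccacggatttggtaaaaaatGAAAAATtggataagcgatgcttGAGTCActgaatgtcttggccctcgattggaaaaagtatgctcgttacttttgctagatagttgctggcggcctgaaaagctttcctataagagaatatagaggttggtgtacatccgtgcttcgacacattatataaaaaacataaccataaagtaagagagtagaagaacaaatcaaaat
THS1 (chrIX:212249-212498, forward strand): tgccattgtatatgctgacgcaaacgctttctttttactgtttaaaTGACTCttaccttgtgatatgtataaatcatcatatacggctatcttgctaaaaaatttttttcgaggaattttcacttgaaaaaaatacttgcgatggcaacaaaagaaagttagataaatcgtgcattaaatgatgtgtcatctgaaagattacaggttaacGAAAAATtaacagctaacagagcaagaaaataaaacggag
TRM82 (chrIV:784621-784870, forward strand): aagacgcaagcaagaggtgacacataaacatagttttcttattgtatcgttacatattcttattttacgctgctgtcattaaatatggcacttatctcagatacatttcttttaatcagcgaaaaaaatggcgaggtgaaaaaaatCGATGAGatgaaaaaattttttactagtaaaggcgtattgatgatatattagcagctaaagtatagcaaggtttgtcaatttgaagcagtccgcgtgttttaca
TRM6 (chrXIV:510213-510462, reverse strand): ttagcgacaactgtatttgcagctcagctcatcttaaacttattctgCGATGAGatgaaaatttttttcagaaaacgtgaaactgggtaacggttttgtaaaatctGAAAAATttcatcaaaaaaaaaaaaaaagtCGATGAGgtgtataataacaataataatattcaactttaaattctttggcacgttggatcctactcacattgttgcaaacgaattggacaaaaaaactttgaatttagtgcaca
DED81 [YHR019C], the asparagine enzyme, and YHR020W, the proline enzyme, are transcribed away from each other from a region of 437 bases. Their windows overlap, and 1 RRPE core lies in both. The Gcn4 core lies 182 bases before YHR020W and outside the DED81 window. THS1 carries the Gcn4 core 204 bases before the start codon. TRM82 has a PAC core 104 bases before its start codon, while TRM6 has PAC cores at 203 and 114 bases with an RRPE core between them.

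Within each class, the medians of genes with and without a motif lay close to each other. The median log2 fold change was -0.54 for the 9 charging genes with a Gcn4 core and -0.53 for the 13 without it. It was -0.69 for the 8 modification genes with a PAC core and -0.61 for the 11 without it. These values rest on few genes and carry no test. MOD5, the one member that rose, also had a PAC core, 135 bases before its start codon.

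Among the class I synthetases, which share a catalytic fold, all 10 genes fell. CDC60 [YPL160W] encodes the leucine enzyme and had 1116 and 1037 CPM in trf4Δ, against 1703 and 1694 CPM in the wild type (log2 fold change -0.66, SE 0.10, edgeR adjusted p = 0.000897). VAS1 [YGR094W], the valine enzyme of both cytosol and mitochondria, had 1244 and 1228 CPM in the trf4Δ libraries and 1936 and 1842 CPM in the wild-type libraries (log2 fold change -0.61, SE 0.10, edgeR adjusted p = 0.00121). The pairs of libraries stood well apart for both genes. WRS1 [YOL097C], the tryptophan enzyme, was among the least abundant of the charging genes, with 215 and 200 CPM in trf4Δ, against 338 and 312 CPM in the wild type. It fell as far as the most abundant ones (log2 fold change -0.65, SE 0.09, edgeR adjusted p = 0.000639), and it was the only charging gene outside the highest level group. GLN4 [YOR168W], the glutamine enzyme, had 448 and 449 CPM in the trf4Δ libraries and 728 and 644 CPM in the wild-type libraries (log2 fold change -0.61, SE 0.10, edgeR adjusted p = 0.00119).

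The remaining class I genes fell by between 0.34 and 0.61 on the log2 scale. YDR341C (arginine) changed by -0.54, CRS1 [YNL247W] (cysteine) by -0.54 and ILS1 [YBL076C] (isoleucine) by -0.53. TYS1 [YGR185C], the tyrosine enzyme, showed the smallest fall of all charging genes, with 464 ± 8.46 CPM in trf4Δ and 587 ± 25.8 CPM in the wild type (SD, n = 2 each) (log2 fold change -0.34, SE 0.09, edgeR adjusted p = 0.0121). Its call was lost without the second wild-type library, at -0.29 and an edgeR adjusted p of 0.11.

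All 11 class II genes fell as well. GRS1 [YBR121C], the glycine enzyme of both cytosol and mitochondria, showed the greatest fall of the class, with 1113 and 1071 CPM in trf4Δ, against 1755 and 1714 CPM in the wild type (log2 fold change -0.67, SE 0.10, edgeR adjusted p = 0.000755), a level 0.63 times that of the wild type. SES1 [YDR023W] (serine) had 500 and 469 CPM in the trf4Δ libraries and 783 and 723 CPM in the wild-type libraries (log2 fold change -0.64, SE 0.09, edgeR adjusted p = 0.000875). THS1 [YIL078W] (threonine) had 900 and 861 CPM in trf4Δ, against 1386 and 1345 CPM in the wild type (log2 fold change -0.63, SE 0.09, edgeR adjusted p = 0.000897). KRS1 [YDR037W] (lysine) had 941 and 946 CPM in the trf4Δ libraries and 1433 and 1477 CPM in the wild-type libraries (log2 fold change -0.62, SE 0.09, edgeR adjusted p = 0.000917). In each of these genes the libraries of a genotype lay close together relative to the gap between genotypes. ALA1 [YOR335C] (alanine) changed by -0.52, DED81 by -0.53 and DPS1 [YLL018C] (aspartate) by -0.44. HTS1 [YPR033C], which makes the histidine enzyme of both compartments, changed by -0.38 and YHR020W by -0.37.

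The calls of several charging genes rested on single libraries. Without the first wild-type library the edgeR adjusted p was 0.0513 for ALA1, 0.0899 for DPS1, 0.0894 for MES1 [YGR264C] and 0.152 for HTS1. Without the second trf4Δ library it was 0.0551 for MES1, 0.108 for HTS1 and 0.0672 for YHR020W, and without the second wild-type library it was 0.143 for YHR020W. The direction stayed the same for all 45 genes when any 1 of the 4 libraries was left out.

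Charging genes differed from each other more in level than in change. Per kilobase of gene, levels ranged from 134 CPM for CRS1 to 591 CPM for ARC1 [YGL105W] in trf4Δ, and from 195 CPM for CRS1 to 885 CPM for ARC1 in the wild type. GRS1 followed ARC1, at 545 CPM per kilobase in trf4Δ and 866 in the wild type, and KRS1 came next, at 531 and 819. The folds of trf4Δ over wild type lay between 0.63 and 0.79. The SD of the 22 log2 fold changes was 0.10, the same size as their median SE of 0.10, so that the order of single genes within the class is not resolved. More abundant charging genes had lower log2 fold changes (Pearson's r = -0.48 and Spearman's rho = -0.46 against log2 mean CPM, across 22 genes that share the same libraries and scaling). The 5 synthetases listed as serving cytosol and mitochondria and the other 16 had nearly the same median log2 fold change, -0.54 and -0.53.

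The genes of both charging complexes fell. Yeast ARC1 binds the methionine enzyme MES1 and the glutamate enzyme GUS1 [YGL245W] and helps them take up tRNA. ARC1 had 686 and 651 CPM in trf4Δ, against 962 and 1040 CPM in the wild type (log2 fold change -0.58, SE 0.10, edgeR adjusted p = 0.00143). GUS1 had 939 and 983 CPM in the trf4Δ libraries and 1415 and 1514 CPM in the wild-type libraries (log2 fold change -0.61, SE 0.10, edgeR adjusted p = 0.00127). MES1 had 495 and 392 CPM in trf4Δ, against 622 and 586 CPM in the wild type, and its trf4Δ libraries differed more than those of most charging genes (log2 fold change -0.45, SE 0.12, edgeR adjusted p = 0.0153). The phenylalanine enzyme is built from an α subunit, FRS2 [YFL022C], and a β subunit, FRS1 [YLR060W]. FRS1 had 459 and 432 CPM in the trf4Δ libraries and 620 and 587 CPM in the wild-type libraries (log2 fold change -0.44, SE 0.09, edgeR adjusted p = 0.00408). FRS2 had 327 and 289 CPM in trf4Δ, against 432 and 436 CPM in the wild type (log2 fold change -0.50, SE 0.09, edgeR adjusted p = 0.00286). The log2 ratio of FRS1 to FRS2, in counts per base within a library, averaged 0.29 ± 0.06 in trf4Δ and 0.23 ± 0.07 in the wild type (SD, n = 2 each), and the genotypes overlapped. The ratios of ARC1 to MES1 and of ARC1 to GUS1 overlapped between genotypes as well.

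**Figure D4:**
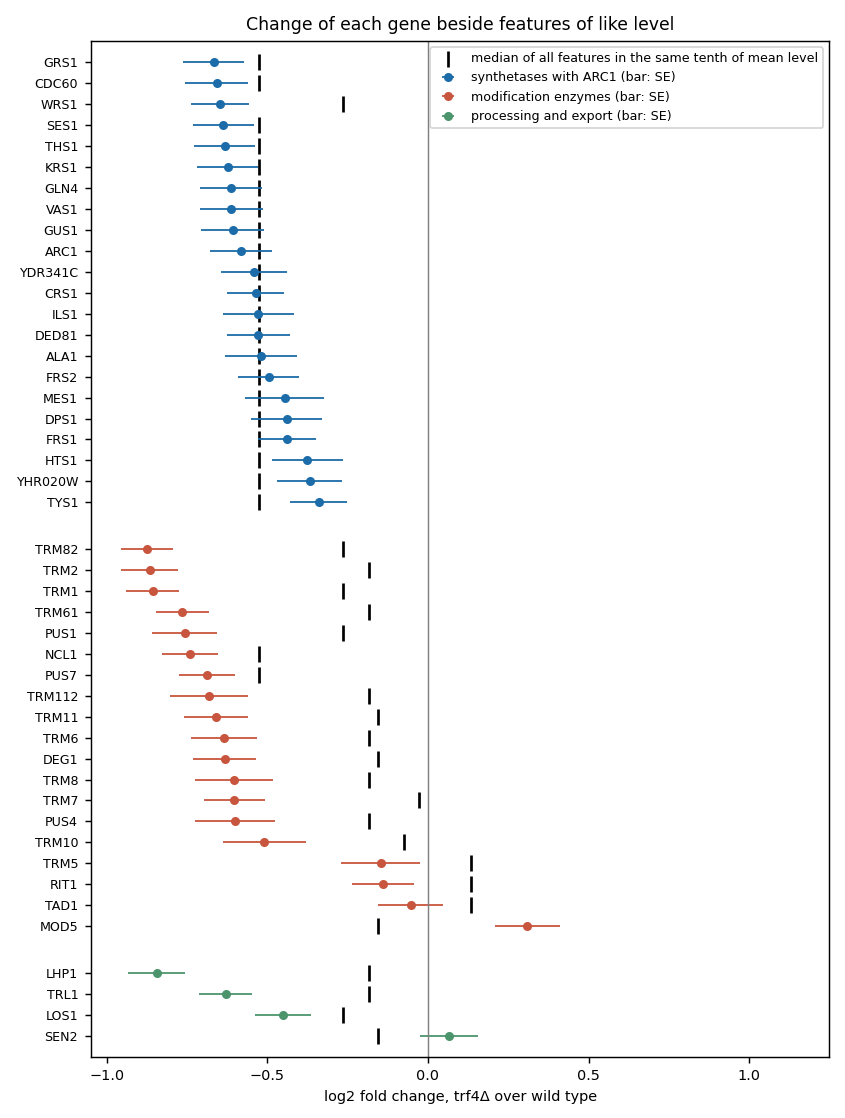
Log2 fold change of trf4Δ over wild type (horizontal, bars show the SE) for each gene (vertical), coloured by class, with a black tick at the median of all features in the same level group. The blue charging genes other than WRS1 lie around their ticks at -0.53, most red modification genes lie to the left of theirs, and MOD5 at 0.31 and SEN2 at 0.07 lie to the right.

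Of the 12 tRNA methyltransferase genes, 11 fell. The greatest fall of all 45 genes was that of TRM82 [YDR165W], the partner subunit of the enzyme that makes 7-methylguanosine, with 127 and 123 CPM in trf4Δ, against 230 and 229 CPM in the wild type (log2 fold change -0.88, SE 0.08, edgeR adjusted p = 0.00011). TRM2 [YKR056W], which methylates uridine in the T loop, had 122 and 113 CPM in the trf4Δ libraries and 207 and 221 CPM in the wild-type libraries (log2 fold change -0.87, SE 0.09, edgeR adjusted p = 0.000161). TRM1 [YDR120C], which makes dimethylguanosine, had 134 and 135 CPM in trf4Δ, against 248 and 239 CPM in the wild type (log2 fold change -0.86, SE 0.08, edgeR adjusted p = 0.000124). These 3 genes had levels of 0.55 times those of the wild type. NCL1 [YBL024W] (also known as TRM4), which makes 5-methylcytosine, was the most abundant methyltransferase gene in CPM, with 318 and 317 CPM in the trf4Δ libraries and 513 and 549 CPM in the wild-type libraries (log2 fold change -0.74, SE 0.09, edgeR adjusted p = 0.000299).

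The genes of both subunits of the TRM6-TRM61 complex, whose product guards initiator tRNA from decay through Trf4, had lower RNA levels. The complex itself and its methyl mark were not measured. TRM61 [YJL125C], the catalytic subunit (listed as GCD14), had 104 and 107 CPM in trf4Δ, against 182 and 177 CPM in the wild type (log2 fold change -0.76, SE 0.08, edgeR adjusted p = 0.000207). TRM6 [YNL062C], the other subunit (listed as GCD10), had 104 and 90.1 CPM in the trf4Δ libraries and 156 and 146 CPM in the wild-type libraries (log2 fold change -0.64, SE 0.10, edgeR adjusted p = 0.00125). The log2 ratio of TRM61 to TRM6 in counts per base averaged 0.44 ± 0.18 in trf4Δ and 0.57 ± 0.05 in the wild type (SD, n = 2 each) and overlapped between genotypes. TRM8 [YDL201W], the catalytic partner of TRM82, had 119 and 93.3 CPM in trf4Δ, against 164 and 158 CPM in the wild type, with a wide gap between the trf4Δ libraries (log2 fold change -0.61, SE 0.12, edgeR adjusted p = 0.00362). The log2 ratio of TRM82 to TRM8 was -0.54 and -0.23 in trf4Δ libraries and -0.14 and -0.10 in wild-type libraries, and it was the only one of 6 partner ratios whose genotypes did not overlap. The mean difference was -0.26, while the trf4Δ libraries differed by an SD of 0.22. With 2 libraries of each genotype, the smallest p of an exact permutation test is 0.333.

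TRM112 [YNR046W] activates several methyltransferases, among them TRM11 [YOL124C], which makes 2-methylguanosine. TRM112 had 84.3 and 94.1 CPM in trf4Δ, against 128 and 158 CPM in the wild type (log2 fold change -0.68, SE 0.12, edgeR adjusted p = 0.00202). TRM11 had 84.9 and 73.3 CPM in the trf4Δ libraries and 127 and 124 CPM in the wild-type libraries (log2 fold change -0.66, SE 0.10, edgeR adjusted p = 0.000958). Their log2 ratio was nearly equal in both genotypes, at 1.85 ± 0.26 in trf4Δ and 1.86 ± 0.24 in the wild type (SD, n = 2 each). TRM7 [YBR061C], which methylates riboses of the anticodon loop, changed by -0.60. TRM10 [YOL093W], a 1-methylguanosine enzyme, changed by -0.51. TRM10 passed with all 4 libraries (edgeR adjusted p = 0.0106), but it had adjusted p-values of 0.0705 when the first trf4Δ library was left out, 0.0576 for the second and 0.0768 without the first wild-type library. TRM5 [YHR070W], which places 1-methylguanosine beside the anticodon, did not pass, with 31.2 and 25.9 CPM in trf4Δ, against 31.2 and 32.1 CPM in the wild type (log2 fold change -0.15, SE 0.12, edgeR adjusted p = 0.323), and its libraries overlapped.

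**Figure D5:**
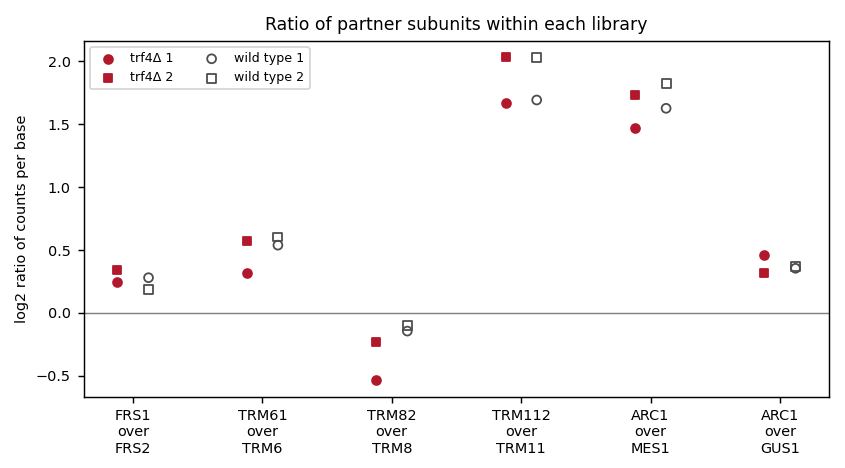
Log2 ratio of counts per base between partner genes (vertical) for 6 pairs (horizontal), with 1 point per library, filled red for trf4Δ and open grey for the wild type. The genotypes overlap in 5 pairs, and both trf4Δ libraries lie below the wild type for TRM82 over TRM8, at -0.54 and -0.23.

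All 4 genes of pseudouridine synthases, which isomerise uridine within the RNA chain, fell. PUS7 [YOR243C] was the most abundant of them, with 385 and 401 CPM in trf4Δ, against 628 and 638 CPM in the wild type (log2 fold change -0.69, SE 0.09, edgeR adjusted p = 0.0004). PUS1 [YPL212C] had 204 and 238 CPM in the trf4Δ libraries and 369 and 378 CPM in the wild-type libraries (log2 fold change -0.76, SE 0.10, edgeR adjusted p = 0.000486). In both genes the genotypes were separated by more than the spread within either. PUS4 [YNL292W], which modifies the T loop, changed by -0.60, and DEG1 [YFL001W] (also known as PUS3), which acts in the anticodon arm, changed by -0.63.

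Of the 3 other modification genes, 0 fell and 1 rose. MOD5 [YOR274W] transfers an isopentenyl group to adenosine beside the anticodon, and its product serves nucleus, cytosol and mitochondria. It rose, with 119 and 102 CPM in trf4Δ, against 89.9 and 88.6 CPM in the wild type (log2 fold change 0.31, SE 0.10, edgeR adjusted p = 0.0306). The change of MOD5 depended on single libraries. Its edgeR adjusted p was 0.149 without the first trf4Δ library, where the log2 fold change was 0.19, 0.0962 without the first wild-type library and 0.116 without the second. TAD1 [YGL243W], which deaminates an adenosine of alanine tRNA to inosine, had 32.4 and 32.2 CPM in the trf4Δ libraries and 34.5 and 32.6 CPM in the wild-type libraries (log2 fold change -0.05, SE 0.10, edgeR adjusted p = 0.656). RIT1 [YMR283C], which marks initiator tRNA with a ribosyl phosphate that keeps it out of elongation, had 36.5 and 38.9 CPM in trf4Δ, against 41.1 and 42.1 CPM in the wild type (log2 fold change -0.14, SE 0.10, edgeR adjusted p = 0.244). TAD1 and RIT1 did not pass, and with TRM5 they had the lowest levels of the 45 genes. Under scaling by library size alone TAD1, RIT1 and TRM5 had log2 fold changes above 0. Across the 19 modification genes, more abundant genes had lower log2 fold changes (Pearson's r = -0.62 and Spearman's rho = -0.81, across genes that share libraries and scaling).

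Among the processing genes, LHP1 [YDL051W] encodes the yeast La protein, which binds the 3′ ends of new tRNA precursors, and had 110 and 117 CPM in trf4Δ, against 211 and 197 CPM in the wild type (log2 fold change -0.85, SE 0.09, edgeR adjusted p = 0.000172). TRL1 [YJL087C], the ligase that joins the tRNA fragments during splicing and also joins HAC1 mRNA, had 101 and 102 CPM in the trf4Δ libraries and 155 and 158 CPM in the wild-type libraries (log2 fold change -0.63, SE 0.08, edgeR adjusted p = 0.000471). LOS1 [YKL205W], the nuclear export receptor of tRNA, had 172 and 157 CPM in trf4Δ, against 227 and 223 CPM in the wild type (log2 fold change -0.45, SE 0.09, edgeR adjusted p = 0.0031). The libraries of each genotype lay together for these genes. Scaling by library size alone ended the call of LOS1, at -0.13. SEN2 [YLR105C], a catalytic subunit of the splicing endonuclease, did not pass, with 78.2 and 84.5 CPM in the trf4Δ libraries and 76 and 79.5 CPM in the wild-type libraries (log2 fold change 0.07, SE 0.09, edgeR adjusted p = 0.553). SEN2 was called higher under scaling by library size alone, at 0.39. Of the other subunits of that endonuclease, named after their values were seen, SEN34 fell (log2 fold change -0.64, SE 0.13, edgeR adjusted p = 0.00375). SEN54 fell too (log2 fold change -0.61, SE 0.12, edgeR adjusted p = 0.00301). SEN15 did not pass (log2 fold change 0.13, SE 0.21, edgeR adjusted p = 0.602).

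Other genes of the tRNA pathway, 70 in 5 lists, had 37 lower and 5 higher, with a median log2 fold change of -0.30. The counts of these lists stand beside 28.9% lower and 31.3% higher among all features, shares that themselves moved with level, from 1.26% lower in the lowest level group to 70.2% in the highest. Of 14 synthetases of mitochondria, 2 were lower and 1 higher, with a median of -0.05. MSD1, the mitochondrial aspartate enzyme, changed by -0.44 and MSY1, that of tyrosine, by -0.34. Leaving out the first trf4Δ library left 0 of them lower, and leaving out either wild-type library left 1. The gene that rose, named after its value was seen, was DIA4 (mitochondrial serine enzyme) at 0.27 (edgeR adjusted p = 0.0467). No mitochondrial gene was called higher with DESeq2-type size factors, without the filter, with DESeq2 or without any 1 of the 4 libraries. Library size alone gave 7 of them higher and 0 lower. The number higher was 2 with a minimum of 10 counts per library, with robust fitting and at a threshold of 0.1. All 14 mitochondrial genes lay below all cytosolic charging genes in mean CPM, in the third to the sixth level group. The difference between the lists was not tested. Of 13 genes that modify the wobble uridine, 8 were lower and 0 higher, with a median of -0.44. ELP3, the catalytic subunit of the Elongator complex, changed by -0.86 (SE 0.09) and its partner ELP2 by -0.68 (SE 0.10).

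Of 23 further genes of cytosolic modification, 18 were lower and 1 higher, with a median of -0.43. The gene that rose was TAD2 [YJL035C], a subunit of the deaminase that makes inosine at the wobble position, with 82.3 and 85.5 CPM in trf4Δ, against 30.7 and 30.4 CPM in the wild type (log2 fold change 1.46, SE 0.09, edgeR adjusted p = 2.39e-05). The gene of the other subunit, TAD3, named after its value was seen, did not pass (log2 fold change -0.06, SE 0.22, edgeR adjusted p = 0.837). DUS1 [YML080W], a dihydrouridine synthase, showed the greatest fall of the list, with 62.7 and 67.6 CPM in the trf4Δ libraries and 143 and 143 CPM in the wild-type libraries (log2 fold change -1.14, SE 0.09, edgeR adjusted p = 5.14e-05). Of 15 genes of end processing and splicing, 7 were lower and 2 higher, with a median of -0.29. TRZ1, which cuts the 3′ trailer, changed by -0.59 and POP1, a subunit of RNase P, by -0.55. The 2 higher genes, named after their values were seen, were POP6 at 0.77 and POP5 at 0.28, both encoding further subunits of that enzyme. POP5 passed narrowly (edgeR adjusted p = 0.0495), and 1 gene of the list was higher, in place of 2, with DESeq2-type size factors, without the filter, with DESeq2 and without any 1 of the 4 libraries. Of 5 export and import receptors, 2 were lower and 1 higher. CRM1 stood at -0.47 and the import receptor MTR10, named after its value was seen, at -0.32. MSN5, an exportin of tRNA and proteins, was higher at 0.44 (SE 0.15, edgeR adjusted p = 0.0327). It had 178 and 155 CPM in trf4Δ, against 141 and 104 CPM in the wild type. At a threshold of 0.01, 0 genes of this list were higher.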

How the data were processed

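RNA was sequenced from 2 trf4Δ and 2 wild-type libraries as paired reads of 76 bases. The authors deposited whole-number counts per gene feature, without normalisation. The submitters' processing notes name STAR 2.5.3 and the build sacCer3. The counting program, the annotation and the use of strand are not given in the sources used here, so reads of antisense or overlapping transcripts could be included. 

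Groups came from the source labels. Library numbers follow the deposition order and do not pair libraries. The libraries of a genotype were compared first and differed by far more than sampling noise (chi-square per degree of freedom 97.5 and 58.6). The analysis used edgeR 4.0.16 under R 4.3.3. The filter filterByExpr kept 6372 of 7445 features, which were scaled by TMM (factors 1.13 and 1.11 for trf4Δ, 0.904 and 0.885 for the wild type) and tested with glmQLFit and glmQLFTest, as a two-sided test, and adjusted by Benjamini-Hochberg over every feature tested. Calls used an adjusted p under 0.05. Standard errors were obtained by dividing the log2 fold change by the square root of F. One count is worth 0.0173 to 0.0187 CPM before scaling, and such limits cover counting error only. The test was also run on simulated counts in which few features changed, with rises and falls in nearly equal number. That setting differs from these data, where most features were called, and does not show how the test behaves here.

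The 45 genes, the other lists and the motifs were chosen with earlier results of these data known. Values in all libraries are printed for the 8 charging and 8 modification genes with the smallest adjusted p, partner subunits, processing genes and genes that did not fall with their class. Of each further list, the 2 genes with the smallest adjusted p were named, if under 0.05. Promoter windows came from RefSeq R64, the assembly behind sacCer3, and start codons were read as ATG for 45 of 45 genes. Alternatives were other scalings (DESeq2-type size factors, library size alone), unfiltered features, a minimum of 10 counts per library, robust fitting, DESeq2 1.42.0, thresholds of 0.01 and 0.1, and leaving out each library, where the lone library of a genotype is assumed to vary like the others. Figures were drawn with Python 3.11.15 and matplotlib 3.10.9.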

Additional observations from a re-analysis of the deposited data

How the results depend on the processing

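Each of the 45 genes kept its direction and its side of the threshold with DESeq2-type size factors, no filter, a minimum of 10 counts per library, robust fitting and DESeq2. Library size alone changed most. It gave 24 genes lower and 2 higher in place of 40 and 1, with 10 charging genes lower in place of 22, and 1 processing gene, SEN2, higher in place of 0. It turned TRM5 to 0.18, TAD1 to 0.27 and RIT1 to 0.18. The median log2 fold change became -0.218 for charging, -0.314 for modification and -0.218 for processing genes, and the log2 ratio of the summed level became -0.242 for charging genes (main value -0.564) and -0.342 for modification genes (main value -0.664). The median of all features moved to 0.336 under that scaling, and 18.9% of its calls were lower in place of 48.0%.

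A threshold of 0.01 left 0 genes higher, both among the 45 and among the modification genes. For the 70 other tRNA genes, 37 were lower and 5 higher. Library size alone gave 14 and 15, and the threshold of 0.01 gave 24 and 2. The higher count was 9 at a threshold of 0.1 and 3 with DESeq2-type size factors, with no filter and with DESeq2.

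Leaving out 1 library in turn gave 35 to 39 genes lower and 0 to 1 higher among the 45, 18 to 22 charging and 14 to 15 modification genes lower, and 0 to 1 modification genes higher. The median log2 fold change ranged from -0.617 to -0.516 for charging, from -0.672 to -0.559 for modification and from -0.572 to -0.512 for processing genes. Their difference, charging minus modification, ranged from 0.008 to 0.12. Among the other tRNA genes 26 to 30 were lower and 2 to 3 higher. TRF4 ranged from -8.85 to -7.93. No paired analysis was possible because the labels give the genotypes no shared replicate numbers. With 2 libraries per genotype, depth was not the limit for the 45 genes, which had at least 1556 counts in each library.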
